A study of Sus scrofa with 2 samples.

Results

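The genes described here are the mitochondrial carriers of the SLC25A family and the TIMM and TOMM genes of the mitochondrial protein import machinery, in the longissimus dorsi muscle of pigs. The rule that picked them uses the symbol only, but it was set with earlier results of these data known. It takes rows whose Ensembl pig gene identifier carries a name that begins with SLC25A, TIMM or TOMM followed by a digit. Of 27987 rows in the deposited table, 48 met this rule, 32 carriers and 16 import genes, each symbol on 1 row. Another 15 identifiers with a fitting symbol, among them SLC25A6, SLC25A11, TIMM10 and TIMM17A, have no row under that identifier and are not analysed here. The study kept 16 DLY barrows (castrated male crossbreds of Duroc boars with Yorkshire-Landrace sows) of 79.0 ± 1.5 kg for 21 days at either 22 °C (CON, 8 pigs) or 30 °C (H30, 8 pigs). All pigs were of the same cross, and the sources used here give neither their age nor the number of pigs behind each library. One messenger RNA library was deposited per temperature, so each value below is a single measurement with no replicate error, and no test across pigs is possible. The effect of temperature therefore cannot be told apart from that of the pigs sampled or of library preparation.

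The inner mitochondrial membrane is closed to most solutes, and SLC25A carriers are the proteins that pass ADP, ATP, phosphate, amino acids, fatty acyl groups and cofactors across it. Nearly all mitochondrial proteins are made in the cytosol and must be imported. The TOM complex (TOMM genes) is the entry gate in the outer membrane, small TIM chaperones escort hydrophobic proteins through the space between the membranes, the TIM23 complex moves proteins with a presequence into the matrix, and the TIM22 complex inserts the carriers themselves into the inner membrane. Skeletal muscle is rich in the carriers that exchange ADP for ATP and bring in phosphate, which feed ATP synthase.

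Values are RPKM, reads scaled to gene length and library total. Levels of different genes are set side by side on that scale. The source of the gene lengths is not given, so ratios between genes depend on unknown gene models. No interval was computed for ratios between genes, so their counting error is not given. The libraries held an estimated 23608242 reads (22 °C) and 22863584 reads (30 °C), recovered from the values, and 1 read on a gene of 1 kb was worth 0.0424 and 0.0437 RPKM. Differences are given as the plain ratio of the RPKM values (30 °C over 22 °C) with a 95% Clopper-Pearson interval that covers counting error only, or as the log2 ratio of RPKM + 1, which understates the difference of low genes. The muscle fibre genes of a marker list were the most abundant of those checked, with ACTA1, skeletal actin, at 68749 and 65219 RPKM and 4 of 8 listed markers matched, none at 0. Summed marker levels at 22 °C and 30 °C were 901 and 817 RPKM for fibroblasts (5 of 6 matched), 17.6 and 10.1 for adipocytes (2 of 6), 116 and 132 for endothelium (2 of 4), 7.12 and 11.06 for macrophages (3 of 4) and 89.5 and 113 for red blood cells (2 of 3). The sums hide markers that went opposite ways. On the log2 ratio 1 fibroblast marker lay above 0 and 4 below, 1 and 1 for endothelium, and 2 and 1 for macrophages. No matched marker was at 0 in both libraries. The part of these cell types in the differences below was not tested, and in bulk tissue fewer cells of a type and less RNA per cell cannot be told apart.

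The comparison asked how carrier and import transcripts differed between muscle kept at the control and at the hot temperature. Carriers spread to both sides, from SLC25A14 (log2 ratio 0.51) to SLC25A16 (-0.47), while the TIMM genes lay on the lower side at 30 °C by small amounts (TIMM8A not under every scaling) and in the TOM complex TOMM20, TOMM22 and TOMM40 on the higher side with TOMM7 and TOMM70 on the lower. No member was 1.5-fold apart on the log2 ratio of RPKM + 1, among the 41 of 48 members whose mean RPKM reached 1. Over all 13191 entries above that limit, 3.44% were 1.5-fold or more higher and 2.37% lower, 5.81% in either direction, or 1.83% of entries with a symbol. At 2-fold, 0.629% of all entries were higher and 0.584% lower, and again no member. On the plain RPKM ratio, 1 carrier was past 1.5-fold on the higher side (SLC25A14) and 1 on the lower side (SLC25A16), beside 7.74% and 4.48% of all entries. The median log2 ratio was 0.07 for 26 carriers and -0.11 for 15 import genes, beside 0.05 for all entries. Of the carriers 14 lay above 0 and 12 below, and of the import genes 3 lay above and 12 below, where 58.8% of all entries lay above and 41.2% below.

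**Figure D1:**
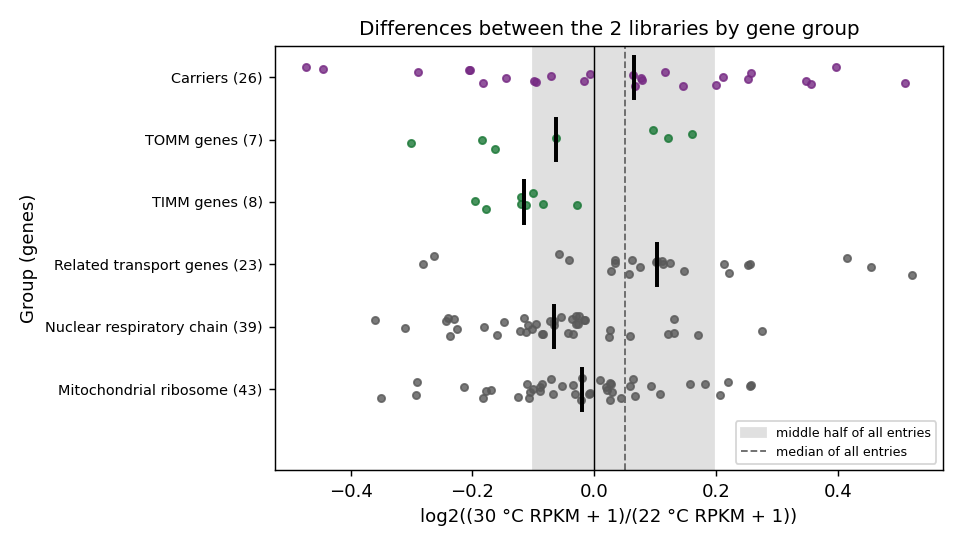
Log2 ratio of RPKM + 1 (30 °C over 22 °C, horizontal axis) for each gene whose mean RPKM reached 1, by gene group (vertical axis, number of genes in brackets). Black bars are group medians, the grey band is the interquartile range of all 13191 entries and the dashed line their median (0.05), and the 8 TIMM points lie below 0 as deposited (7 when rescaled without the 10 highest genes) while the 26 carriers spread from -0.47 to 0.51.

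Among the carriers of ADP, ATP and phosphate, 2 genes held most of the family's transcripts. SLC25A4 (ENSSSCG00000015790), the ADP/ATP exchanger of heart and skeletal muscle, stood at 604 RPKM in the 22 °C library and 597 in the 30 °C library, a ratio of 0.988 (0.970 to 1.01). SLC25A3 (ENSSSCG00000000886), the phosphate carrier, stood at 404 and 422 RPKM, a ratio of 1.05 (1.02 to 1.07). The SLC25A4 interval holds 1 and its log2 ratio of -0.02 became 0.03 when the libraries were rescaled without the 10 highest genes, so its direction depends on the scaling. The log2 ratio of SLC25A3, 0.06 as deposited, was 0.01 after centring on the median of all genes, 0.004 after trimmed mean rescaling and 0.11 without the 10 highest genes. Together both genes made up 81.2% of the summed RPKM of the 32 carriers at 22 °C and 81.8% at 30 °C. SLC25A4 was 1.50 times as abundant as SLC25A3 at 22 °C and 1.41 times at 30 °C.

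SLC25A5 (ENSSSCG00000012623), the ADP/ATP exchanger typical of dividing cells, was far lower, at 6.25 and 5.78 RPKM (ratio 0.925, 0.710 to 1.20). The muscle form exceeded it 96.6-fold at 22 °C and 103-fold at 30 °C on the RPKM scale. Adenine nucleotide exchangers are close in sequence and the sources used here do not say how reads with several matches were treated, so the split between these 2 genes is uncertain. SLC25A31, the exchanger of male germ cells, was listed at 0 in both libraries. Summed over all 32 carriers the RPKM was 1240.4 at 22 °C and 1246 at 30 °C, a ratio of 1.004. Without SLC25A3 and SLC25A4 the sum over 30 carriers was 233 and 227, a ratio of 0.975.

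**Figure D2:**
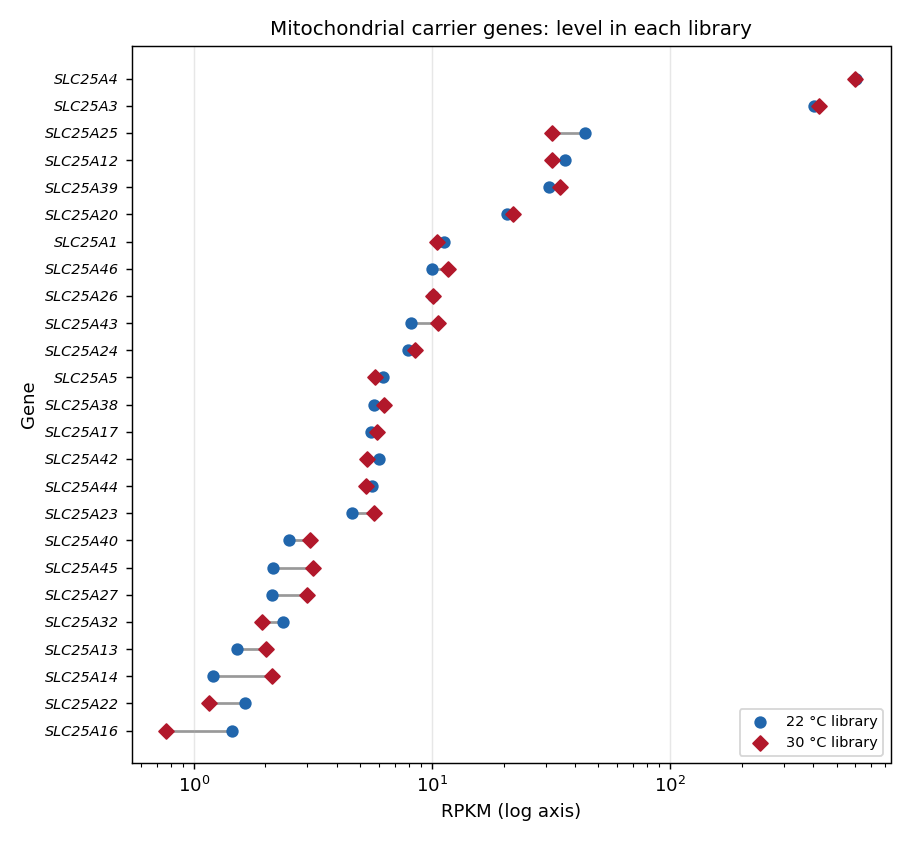
RPKM (log axis) of 25 of the 26 carriers whose mean RPKM reached 1, each a row, in the 22 °C library (blue circles) and the 30 °C library (red diamonds), ordered by mean. SLC25A4 and SLC25A3 stand far above the other carriers, and the widest gaps between the libraries are at SLC25A16 and SLC25A14, at the low end of the scale.

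The calcium-regulated carriers that exchange ATP-Mg for phosphate, and so set the size of the matrix adenine nucleotide pool, differed from each other in direction. SLC25A25 (ENSSSCG00000005636) stood at 43.9 RPKM at 22 °C and 32.0 at 30 °C, a ratio of 0.728 (0.691 to 0.767) on at least 3464 and 2443 reads. Its log2 ratio of -0.45 was the lowest of the 9 carriers at a mean RPKM of 10 or more, and 4.22% of all entries lay at or below it. SLC25A24 stood at 7.97 and 8.47 RPKM (ratio 1.06, 0.885 to 1.28) and SLC25A23 at 4.63 and 5.71 (1.23, 0.969 to 1.57). Both of these intervals hold 1. SLC25A25 was 5.52 times as abundant as SLC25A24 in the 22 °C library and 3.78 times in the 30 °C library. Against SLC25A23 it was 9.49 times as abundant at 22 °C and 5.61 times at 30 °C. SLC25A25 was the most abundant of the 3 measured in both libraries, and the listed SLC25A41 is not analysed here.

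The aspartate/glutamate carriers, part of the malate-aspartate shuttle that moves reducing power from glycolysis into the matrix, also lay on opposite sides. SLC25A12 (ENSSSCG00000015949), known as aralar and the usual form of muscle and brain, stood at 36.3 and 31.9 RPKM (ratio 0.878, 0.789 to 0.977). SLC25A13 (ENSSSCG00000015336), known as citrin and the usual form of liver, stood at 1.52 and 2.02 RPKM (1.32, 0.975 to 1.80), and its interval holds 1. The muscle form was 23.8 times as abundant as the liver form in the 22 °C library and 15.8 times in the 30 °C library. The log2 change of that level ratio, 30 °C minus 22 °C with no pseudocount, was -0.59, where SLC25A13 rests on a minimum of 78 and 100 reads.

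The carriers of acylcarnitines and citrate had ratios near 1. SLC25A20 (ENSSSCG00000011366), which brings acylcarnitines in for fatty acid oxidation, stood at 20.7 and 21.9 RPKM (ratio 1.06, 0.961 to 1.16). SLC25A1 (ENSSSCG00000010116), which exports the citrate used for fatty acid synthesis, stood at 11.3 and 10.5 RPKM (0.928, 0.804 to 1.07). Neither interval excludes 1, and at this depth each leaves room for a difference of up to 1.16-fold for SLC25A20 and down to 0.804 for SLC25A1. The amino acid carriers SLC25A38 for glycine (5.73 and 6.30 RPKM), SLC25A44 for branched-chain amino acids (5.63 and 5.31) and SLC25A22 for glutamate (1.64 and 1.16) had intervals that hold 1. SLC25A22 had the lowest ratio of these, 0.708, on at least 35 and 24 reads (0.403 to 1.22). The ornithine carrier of the urea cycle, SLC25A15, stood at 0.489 and 0.558 RPKM and was below the mean of 1.

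All 8 carriers of cofactors and glutathione reached a mean RPKM of 1, with 3 above 0 and 5 below on the log2 scale. Of all entries, 58.8% lay above 0 and 41.2% below. SLC25A39 (ENSSSCG00000030167), a glutathione importer, was the most abundant, at 31.1 and 34.4 RPKM (ratio 1.11, 1.02 to 1.21). Its close relative SLC25A40 stood at 2.52 and 3.08 RPKM (1.22, 0.975 to 1.53), the same side with an interval that holds 1. At the other end SLC25A16 (ENSSSCG00000022303), a carrier linked to coenzyme A, stood at 1.45 RPKM at 22 °C and 0.767 at 30 °C. That ratio of 0.528 (0.305 to 0.891) was the lowest of the 41 members and rests on few reads, a minimum of 45 and 23. When 0.1 was added to the RPKM instead of 1, its log2 ratio was -0.84, past 1.5-fold, in place of -0.47.

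Other cofactor carriers had intervals that hold 1. SLC25A42, a coenzyme A carrier, stood at 5.98 and 5.32 RPKM, and SLC25A17, the peroxisomal member of the family, at 5.57 and 5.88. SLC25A32, the carrier of folate and flavin cofactors, stood at 2.37 and 1.93 RPKM (ratio 0.813, 0.619 to 1.07). SLC25A26, which imports the methyl donor S-adenosylmethionine, stood at 10.11 and 10.06 RPKM (ratio 0.995, 0.860 to 1.15). Its log2 ratio of -0.01 became 0.03 when rescaled without the 10 highest genes.

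The 2 measured members named as relatives of the uncoupling proteins were both higher in the 30 °C library, from a low level. The listed SLC25A30 is not analysed here. SLC25A14 (ENSSSCG00000012660), also called UCP5, stood at 1.20 and 2.14 RPKM, a ratio of 1.78 (1.06 to 3.03) on at least 25 and 43 reads. SLC25A27 (ENSSSCG00000001720), also called UCP4, stood at 2.12 and 2.99 RPKM, a ratio of 1.41 (1.07 to 1.86) on a minimum of 93 and 127 reads. Both intervals lie above 1, as do those of 20.7% of all entries. SLC25A14 had the highest ratio of the 41 members, with 4.77% of all entries at or above its log2 ratio of 0.51. Its log2 ratio was 0.78, past 1.5-fold, with a pseudocount of 0.1 and 0.20 with 5.

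Among the carriers with less settled substrates, all 3 that passed the filter lay on the higher side at 30 °C, as did 58.8% of all entries. SLC25A43 (ENSSSCG00000012624) stood at 8.14 and 10.6 RPKM (ratio 1.31, 1.12 to 1.52). SLC25A46 (ENSSSCG00000014197), an outer membrane protein involved in mitochondrial shape, stood at 10.02 and 11.6 RPKM (1.16, 1.07 to 1.26). SLC25A45 stood at 2.16 and 3.16 RPKM (1.46, 0.936 to 2.31), and its interval holds 1. SLC25A43 and SLC25A5 are next to each other on chromosome X among protein-coding genes of RefSeq's Sscrofa11.1 assembly. Their ratios were 1.31 and 0.925, but the SLC25A5 interval (0.710 to 1.20) holds 1, so its side is not settled.

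The other 4 of this group were below a mean RPKM of 1. SLC25A35 stood at 0.665 and 0.448 RPKM, SLC25A47, a gene typical of liver, at 0.362 and 0.467, and SLC25A48 at 0.0583 and 0.0903. SLC25A53 stood at 0.0460 RPKM at 22 °C, on a minimum of 1 read, and was listed at 0 at 30 °C. These, with SLC25A15, SLC25A31 and TOMM20L, are the 7 members below a mean RPKM of 1, and no difference is read from them.

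**Figure D3:**
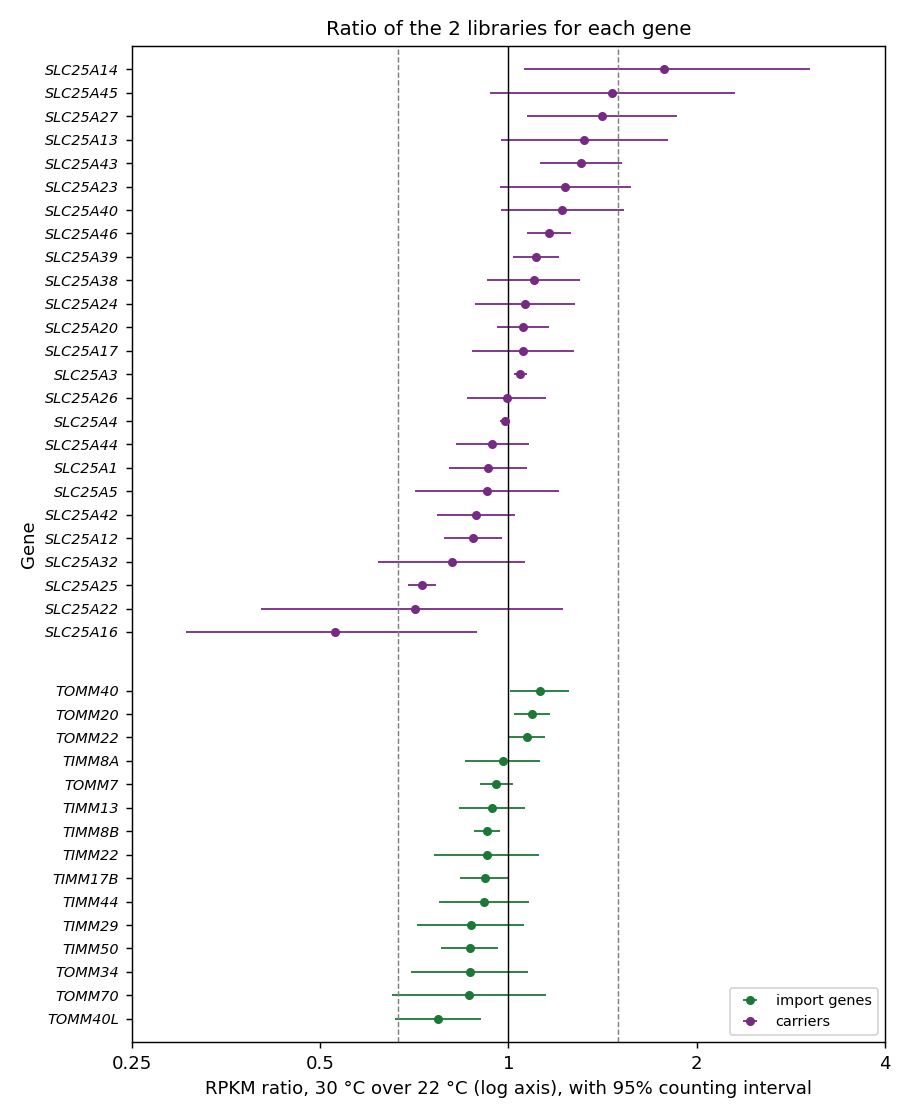
RPKM ratio (30 °C over 22 °C, log axis) of 40 of the 41 members whose mean RPKM reached 1, each a row, with its 95% counting interval (horizontal bars). Purple are carriers and green are import genes, the solid line is equality and dashed lines are 1.5-fold either way. SLC25A14 and SLC25A16 are the points outside the dashed lines, both with wide intervals, while SLC25A25 has a narrow one below 1.

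The counting interval of the ratio excluded 1 for 15 of the 41 members, 9 on the higher and 6 on the lower side. Among carriers the interval lay above 1 for 6 of 26 (SLC25A3, SLC25A14, SLC25A27, SLC25A39, SLC25A43 and SLC25A46) and below 1 for 3 (SLC25A12, SLC25A16 and SLC25A25). All of these intervals are for the values as deposited and were not recomputed after rescaling. The log2 ratio of SLC25A3 came close to 0 under 2 of the rescalings. The shares of carriers are 23.1% and 11.5%, beside 20.7% and 10.6% of all entries. Among import genes it lay above 1 for 3 of 15 (TOMM20, TOMM22 and TOMM40) and below 1 for 3 (TIMM8B, TIMM50 and TOMM40L), or 20.0% each way. Trimmed mean rescaling divided the 30 °C values by 1.04. That is more than the lower ends for SLC25A3, SLC25A39, TOMM20, TOMM22 and TOMM40 (1.001 to 1.02), so these intervals depend on the scaling. The same 1.04 also exceeds the upper ends for SLC25A4, SLC25A42, TOMM7 and TIMM17B (1.004 to 1.03), whose intervals hold 1 as deposited. Without the 10 highest genes the log2 ratios of SLC25A12 and TIMM8B were -0.14 and -0.07, smaller in size than as deposited (-0.18 and -0.11). Their upper ends as deposited are 0.977 and 0.971, and the lower ends for SLC25A13 and SLC25A40 are each 0.975. These lie close to 1, so these intervals depend on the scaling too. The carriers' shares and the higher share of the import genes are near the background, so they are no result about these genes. The lower share of the import genes rests on 3 genes. Intervals narrow with more reads, and of entries at a mean RPKM of 5 or more 24.6% lay above 1 and 14.7% below. An interval that excludes 1 says nothing of variation between pigs. The median size of the log2 ratio, whatever its sign, was 0.21 over the 17 carriers at 1 to 10 RPKM and 0.10 over the 9 at 10 or more. For all entries the corresponding medians were 0.18 and 0.12, and for entries with a symbol 0.14 and 0.11.

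In the outer membrane, 3 of the 5 measured genes of the TOM complex lay on the higher side at 30 °C. That is 60%, near the 58.8% of all entries. They were the receptors TOMM20 and TOMM22 and the pore TOMM40. TOMM22 (ENSSSCG00000000097), the central receptor, stood at 67.7 and 72.5 RPKM (ratio 1.07, 1.001 to 1.14). TOMM20 (ENSSSCG00000010158), which binds presequences, stood at 38.5 and 42.02 RPKM (1.09, 1.02 to 1.16). TOMM40 (ENSSSCG00000003089), the channel itself, stood at 29.02 and 32.6 RPKM (1.12, 1.01 to 1.25). These differences are small, and 30.4% of all entries lay at or above the log2 ratio of TOMM40, 0.16. After trimmed mean rescaling the log2 ratios of TOMM22, TOMM20 and TOMM40 were 0.04, 0.06 and 0.10. The other 2 measured members of the complex, TOMM7 and TOMM70, lay on the lower side, and the listed members TOMM5 and TOMM6 are not analysed here. TOMM7, a small subunit that stabilises the complex, stood at 216 and 206 RPKM (0.957, 0.900 to 1.02). TOMM70 (ENSSSCG00000011963), the receptor that takes carriers from cytosolic chaperones, stood at 8.90 and 7.71 RPKM (0.867, 0.652 to 1.15). Both of these intervals hold 1.

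TOMM22 was 7.61 times as abundant as TOMM70 in the 22 °C library and 9.39 times in the 30 °C library, and TOMM20 4.33 and 5.45 times. TOMM70 rests on a minimum of 112 and 94 reads and its interval holds 1, so no change of make-up is read from these ratios. Summed over the 5 measured genes of the complex the RPKM was nearly equal, 359.9 and 361, a ratio of 1.004. TOMM40L (ENSSSCG00000006354), a paralogue of the channel gene, lay on the other side from TOMM40. It stood at 4.77 and 3.68 RPKM, a ratio of 0.772 (0.660 to 0.904), the lowest of the 15 import genes. TOMM40 was 6.08 times as abundant as its paralogue at 22 °C and 8.84 times at 30 °C. TOMM34, a cytosolic co-chaperone despite its name, stood at 4.25 and 3.69 RPKM (0.868, 0.700 to 1.07). TOMM20L, a paralogue of TOMM20, was listed at 0 at 22 °C and stood at 0.0953 RPKM at 30 °C, on a minimum of 1 read.

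**Figure D4:**
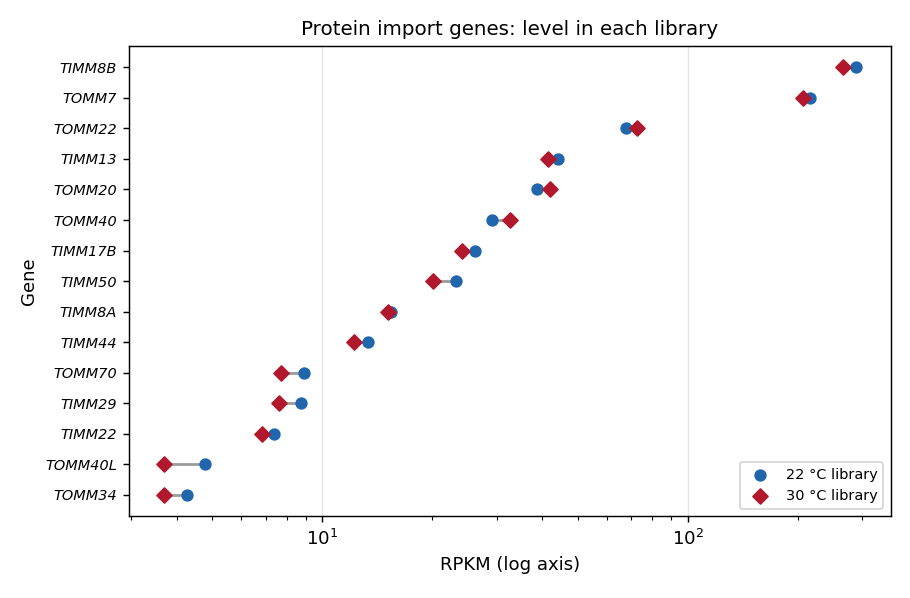
RPKM (log axis) of the 15 import genes whose mean RPKM reached 1, each a row, in the 22 °C library (blue circles) and the 30 °C library (red diamonds), ordered by mean. The red diamond lies to the right of the circle for TOMM22, TOMM20 and TOMM40 and to the left for the other 12 genes as deposited (11 when rescaled without the 10 highest genes).

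All 8 measured TIMM genes had a lower RPKM in the 30 °C library, with a median log2 ratio of -0.12 and a range of -0.20 to -0.03. The count was 7 of 8 when the libraries were rescaled without the 10 highest genes, where TIMM8A moved to 0.01, and 8 of 8 when centred on the median of all genes or rescaled by a trimmed mean. Each difference is small, and 41.2% of all entries lay below 0. Among the small chaperones of the intermembrane space, TIMM8B (ENSSSCG00000023599) was the most abundant import gene, at 288 and 267 RPKM (ratio 0.925, 0.880 to 0.971). TIMM13, the partner of TIMM8A, stood at 44.1 and 41.5 RPKM (0.942, 0.833 to 1.06). TIMM8A, the gene of deafness-dystonia syndrome in people, stood at 15.4 and 15.1 RPKM (0.980, 0.854 to 1.12). TIMM8B was 18.7 times as abundant as TIMM8A at 22 °C and 17.7 times at 30 °C. Summed over these 3 chaperones the RPKM was 348 at 22 °C and 323 at 30 °C.

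In the TIM23 complex, TIMM50 (ENSSSCG00000026612), the receptor that takes presequences from the TOM complex, had the lowest log2 ratio of the TIMM genes (-0.20). It stood at 23.2 and 20.1 RPKM, a ratio of 0.868 (0.782 to 0.963). TIMM17B, a subunit of the channel, stood at 26.2 and 24.03 RPKM (0.916, 0.836 to 1.004). TIMM44 (ENSSSCG00000013591), which tethers the import motor to the channel, stood at 13.3 and 12.2 RPKM (0.914, 0.774 to 1.08). In the carrier-inserting TIM22 complex, TIMM22, the channel, stood at 7.38 and 6.81 RPKM (0.923, 0.760 to 1.12). TIMM29, which stabilises that complex, stood at 8.75 and 7.62 RPKM (0.871, 0.716 to 1.06). Of the 8 genes, the interval excludes 1 for TIMM8B and TIMM50 and holds 1 for the other 6. The listed members TIMM9, TIMM10, TIMM10B, TIMM17A, TIMM21 and TIMM23 are not analysed here.

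The 16 import genes summed to 795 RPKM at 22 °C and 763 at 30 °C, a ratio of 0.959. TIMM8B and TOMM7 held 63.3% of that sum at 22 °C and 62.03% at 30 °C. Without them the sum over 14 genes was 292 and 289.6, a ratio of 0.993. The TIMM genes alone summed to 427 and 394 RPKM (0.923) and the TOMM genes to 369 in each library (0.999).

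Other genes of mitochondrial transport and import were also compared, from a list of 35 chosen with earlier results of these data known. Of 23 matched genes, each with a mean RPKM of 1 or more, 19 lay above 0 and 4 below, where 58.8% of all entries lay above. Their median log2 ratio was 0.10, beside 0.05 for all entries. After centring on the median of all genes 16 lay above 0, beside 6595 of 13191 entries. After trimmed mean rescaling 15 did, beside 6504 of 13085 entries. None was 1.5-fold apart on the log2 ratio of RPKM + 1. SLC8B1 was on the plain RPKM ratio, at 1.94 (1.39 to 2.72). The highest log2 ratios were those of SLC8B1, the mitochondrial sodium/calcium exchanger (0.866 and 1.68 RPKM, log2 ratio 0.52), and UCP3, the muscle uncoupling protein (20.6 and 28.7, 0.45). The lowest were those of ROMO1, a small inner membrane protein tied to TIM complexes (158 and 130.1, -0.28), and MIPEP, a peptidase that trims imported proteins (3.13 and 2.44, -0.26). The remaining 12 listed genes are not analysed here.

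Beside other mitochondrial genes encoded in the nucleus, 12 of the 15 import genes lay below 0. Of 39 nuclear respiratory chain genes 31 lay below 0 (median log2 ratio -0.07), and of 43 mitochondrial ribosomal protein genes 24 did (-0.02), beside 41.2% of all entries. Centred on the median of all genes, 33 and 32 lay below 0, after trimmed mean rescaling 34 and 32, and without the 10 highest genes 23 and 18. Of all entries, 6595 of 13191, 6581 of 13085 and 4594 of 13193 lay below 0 under these settings, in the same order. Rescaled without the 10 highest genes these medians were -0.02 and 0.02, and that of the 15 import genes was -0.07. The median of the 26 carriers, 0.07 as deposited, was 0.02 after centring on the median of all genes. No test of the difference between these groups was made, since genes are not replicates of a temperature.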

How the data were processed

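The authors deposited 1 table of RPKM values with a column per library (CON and H30). Per the submitters' processing notes, Sscrofa10.2 was the build and Cufflinks 1.3.0, TopHat 1.4.0 and Bowtie were among the tools; their roles are not stated. The counting tool and the source of gene lengths are not given in the sources used here. Libraries were poly(A) selected and randomly primed, per the labels' protocols. No strand marking is mentioned, so overlapping genes may share reads.

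Symbols came from a table of Ensembl pig names, which matched 11374 of 27987 rows. Library totals were estimated as the whole numbers that made 76.75% of 400 scanned gene lengths whole. Smaller totals can do as well, so the largest that passed a set share was kept. For each row the shortest length from 100 to 40000 bp that gave whole reads in both libraries was kept, which succeeded for 21391 of 21398 rows above 0 and 47 members. These reads are minima, because a multiple of each pair is also possible, so the Clopper-Pearson intervals can be too wide. They cover counting error only. Amplified reads without molecular identifiers need not be separate molecules, and where they are not, the intervals can be too narrow.

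The effect was log2 of RPKM plus a pseudocount of 1, over rows with a mean RPKM of at least 1, counted at 1.5-fold. Alternatives were other pseudocounts, filters, thresholds and scalings. The steps, in Python 3.11.15 with numpy 2.4.6, pandas 2.3.3 and scipy 1.17.1, were tested on simulated data. One carrier enters the counts and sums but is not reported here by its own values. Named were the other members, plus the 2 highest and 2 lowest genes of the related list. The members, lists and rules were chosen with earlier results of these data known.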

Additional observations from a re-analysis of the deposited data

How the results depend on the processing

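No paired analysis was possible because there is a single library per temperature. The counts of 0 carriers and 0 import genes at 1.5-fold, in either direction, stayed at 0 with a pseudocount of 5, no filter, a mean RPKM of at least 5, the 3 rescalings, summed symbols, a threshold of 2-fold, and with the counting interval added. With a pseudocount of 0.1 there was 1 carrier higher (SLC25A14) and 1 lower (SLC25A16), and the plain RPKM ratio gave the same count, 1 and 1. The counting interval alone, whatever the size, gave 6 carriers higher and 3 lower, and 3 import genes higher and 3 lower. These counts are for the values as deposited. The plain ratio and the interval alone were chosen after seeing the data. Group medians ran from 0.01 to 0.11 for carriers and from -0.17 to -0.07 for import genes over the 8 alternatives run on them. Of 41 members, SLC25A4, SLC25A26 and TIMM8A turned direction when rescaled without the 10 highest genes, and none did under the other 7, of which the filter at a mean RPKM of 5 covers 30 of them. The scalings moved the median of all genes, 0.05, to between 0.00 and 0.09. Depth limits low genes most, as SLC25A14 and SLC25A16 show by their intervals.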
